A study of Mus musculus with 18 samples.

Results

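The genes described here encode the transferases that build and cap glycans in the Golgi. They were chosen by symbol, as the St3gal, St6gal (which takes in St6galnac), St8sia, B3gnt, B3galt, B4galt, Mgat, Galnt, Fut and Gcnt families, and 83 of the 23420 genes in the files met this rule. Of them, 48 were expressed well enough to be tested in the Tlr7-/- libraries and 47 of these also in the Tlr779 libraries, a gene being tested where 3 or more libraries in the fit were over 0 log2 CPM (CPM, reads of a gene scaled to the size of its library).

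RNA was sequenced from B cells purified with beads from the spleens of MRL/lpr mice aged 5 to 7 weeks, a lupus-prone strain in which every group carried the Fas lpr mutation. In the first arm, cells of female Tlr9+/- Tlr7-/- mice (called Tlr9het) and of female Tlr997 Tlr7-/- mice (called Tlr997) were cultured for 4 h without stimulus or with CpG, an agonist of TLR9, at 10 µg/ml. In the second arm, cells of male Tlr779 Tlr9-/- mice (called Tlr779) were cultured for 4 h without stimulus or with CL097, an agonist of TLR7, at 5 µg/ml. Each of the 6 groups held 3 libraries. TLR997 is TLR9 with the signaling (TIR) domain of TLR7, and TLR779 is TLR7 with that of TLR9. Both chimeric alleles had been made by genome editing at the endogenous locus, so they were present in all cells that express the receptor and not only in B cells. The sample titles give the controls as Tlr9+/-, whereas the treatment protocol writes Tlr9-/- for them, and the titles were followed. Because sex, genotype and agonist all changed between the arms, no comparison across the arms was tested.

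The depth of the libraries is unknown, since the files held normalized log2 CPM and no counts. Across genes, which are not replicates, Pearson's r between libraries of a group was 0.94 to 0.99, and it was lowest within unstimulated Tlr997. Tlr9 was at 7.02 to 8.08 log2 CPM in the Tlr7-/- libraries and at 6.93 to 7.47 in those labelled Tlr9-/-, so this level did not check the label. Tlr7 averaged 3.15 log2 CPM in unstimulated Tlr9het, 4.96 in unstimulated Tlr997 and 6.88 in unstimulated Tlr779. The 6 B-cell markers were all found in every library. Their summed level was between 5523 and 7338 CPM in the 9 unstimulated libraries, between 1653 and 1721 in Tlr9het with CpG, between 2598 and 3160 in Tlr997 with CpG and between 2373 and 3021 in Tlr779 with CL097. T-cell markers summed to 1.83 to 24.5 CPM and NK-cell markers to 0.954 to 8.23 CPM. Macrophage markers summed to 80.8 to 438 CPM, neutrophil markers to 3.23 to 119, erythroid markers to 12.2 to 474 and plasma-cell markers to 268 to 1036. The part that these lists had in the results was not tested. In such bulk samples, fewer cells of a type and less RNA per cell cannot be told apart.

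Each transferase adds a single kind of sugar to a given acceptor, and the set that a cell expresses limits which glycans reach its surface. Mgat enzymes branch N-glycans, Galnt enzymes start mucin-type O-glycans, Gcnt enzymes branch them, and B3gnt and B4galt enzymes alternate to extend both into N-acetyllactosamine chains. Fucosyltransferases and sialyltransferases decorate the core or cap the ends. On B cells, capping sialic acid matters because CD22 and Siglec-G, inhibitory co-receptors of the antigen receptor, bind it.

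The agonists changed many of the tested genes, and more fell than rose. With CpG in Tlr9het cells, 11 of 48 were higher and 18 lower at a Benjamini-Hochberg adjusted p under 0.05 in limma and an absolute log2 fold change over 0.5. These are 60.4% of the tested members, while 57.9% of all 11494 tested genes were called (29.7% higher and 28.2% lower). In Tlr997 cells, CpG left 12 higher and 19 lower, or 64.6% against 55.6% of all genes (29.6% higher and 26% lower). With CL097 in Tlr779 cells, 8 of 47 were higher and 17 lower, or 53.2% against 46.3% of 11082 genes (22.7% higher and 23.6% lower). The share called in each response was thus near that of all genes. For B4galt4 and St6galnac2, both called higher, only libraries with agonist were over 0 log2 CPM. For B3gnt1, called lower, only unstimulated ones were over 0 among the Tlr7-/- libraries. For B3gnt8, called lower, the sole Tlr7-/- library with CpG over 0 was Tlr997 replicate 2, at 0.07. For Fut4, called higher, the sole unstimulated Tlr779 library over 0 was replicate 3, at 0.12. These calls are part of the counts, though the filter admitted the genes through the groups where they were high. The median log2 fold change of the members was -0.15 in Tlr9het, -0.15 in Tlr997 and -0.07 in Tlr779, beside 0.04, 0.07 and -0.02 over all genes tested.

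The called genes kept their direction. Of 47 members tested in all 3 responses, 8 were called higher in each (B3gnt2, B3galt6, B4galt4, B4galt5, Fut4, Fut8, St3gal4 and St6galnac4) and 15 lower in each (B3galtl, B3gnt1, B3gnt5, B3gnt8, Fut10, Fut11, Galnt1, Galnt6, Galnt10, Galnt12, Gcnt1, Mgat1, Mgat4a, St3gal1 and St6gal1). No member was called higher in 1 response and lower in another, and 14 were called in none. These counts were not made over all genes, of which 57.9%, 55.6% and 46.3% were called in the 3 responses. Whether the members differ from other genes in this was not tested. The responses of Tlr9het and Tlr997 were fitted in 1 model, and the responses share no libraries.

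**Figure D1:**
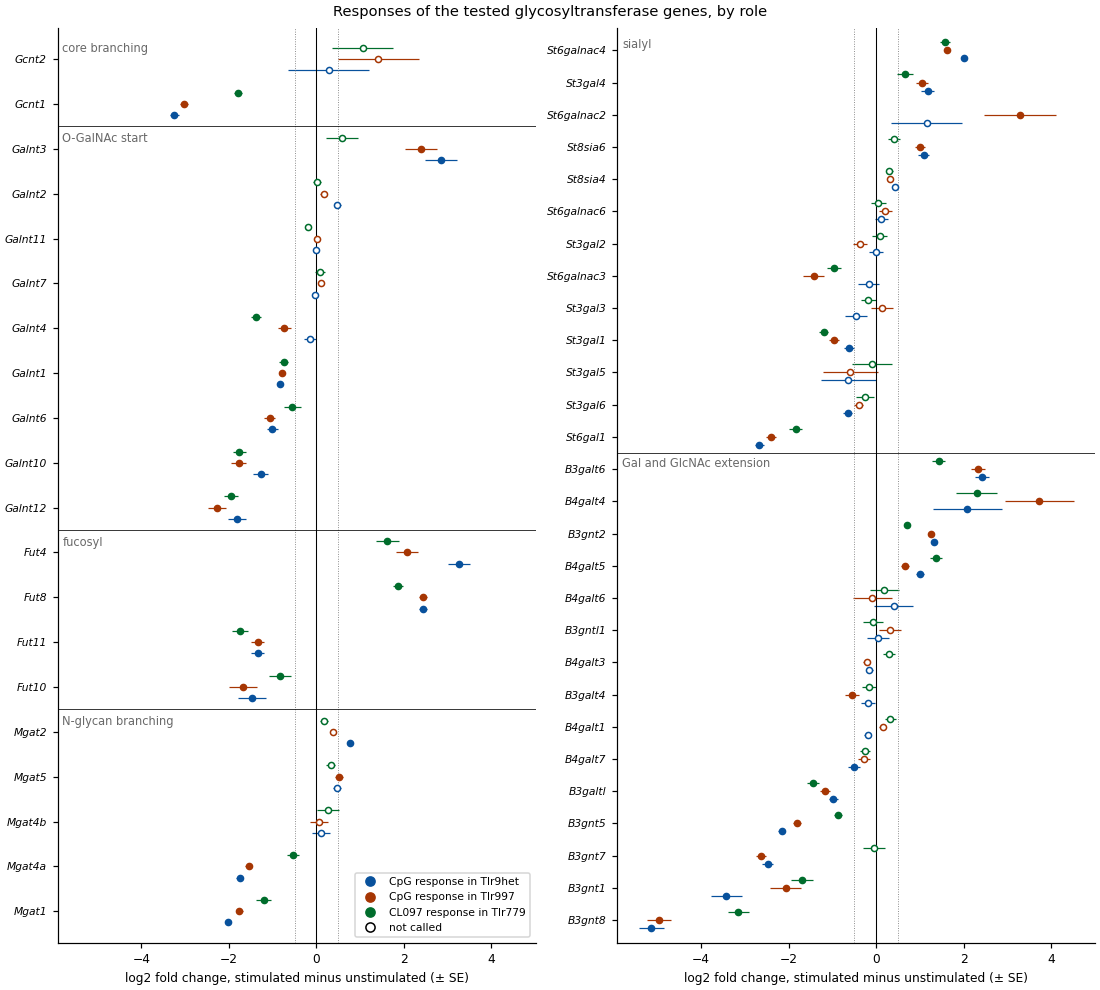
Log2 fold change of each tested transferase gene (x axis, stimulated minus unstimulated, with its standard error) for CpG in Tlr9het (blue), CpG in Tlr997 (orange) and CL097 in Tlr779 (green), 3 libraries per group. Filled points were called, open points were not, dotted lines mark a change of 0.5, and members are grouped by role. B3gnt8 lies farthest to the left in each response, and each role group holds points on both sides of 0.

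Among the N-glycan branching enzymes, the first fell and the second did not. Mgat1, which adds the N-acetylglucosamine that opens the way to hybrid and complex N-glycans, was at 7.38, 7.38 and 7.37 log2 CPM in the unstimulated Tlr9het libraries and at 5.34, 5.36 and 5.34 with CpG. That was a log2 fold change of -2.03 ± 0.07 (SE, adjusted p = 4.4e-11), and the values were -1.76 ± 0.07 in Tlr997 and -1.20 ± 0.17 in Tlr779. Mgat4a, which adds a further branch, fell as well, by 1.76, 1.55 and 0.54 on the log2 scale in the same order. The call in Tlr779 was lost without CL097 replicate 2 or unstimulated replicate 1. In Tlr9het its means were 7.41 ± 0.04 log2 CPM without and 5.65 ± 0.06 with CpG (SD, n = 3 each).

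Mgat2, the enzyme that commits the chain to the complex type, moved the other way in Tlr9het. It was at 6.18, 6.32 and 6.34 log2 CPM without and 7.00, 7.09 and 7.05 with CpG, a log2 fold change of 0.77 ± 0.06 (SE, adjusted p = 8.7e-08). In Tlr997 the libraries were at 6.53, 6.49 and 6.67 without and 6.95, 6.96 and 6.94 with CpG, and this change of 0.39 ± 0.06 stayed under the fold threshold. In Tlr779 it was at 6.29, 6.52 and 6.40 without and 6.60, 6.73 and 6.41 with CL097, where the groups overlapped. The exons of Mgat2 overlap a gene on the other strand, and whether the counting used strand is not given in the sources used here. Mgat5, which makes a branch favored for long chains, had log2 fold changes of 0.47, 0.51 and 0.33, of which the second alone was called, and that call was lost without unstimulated replicate 2 or 3 or CpG replicate 1. Mgat4b was not called in any response.

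Scaled per kb of exon, Mgat1 made up 46.5% ± 0.69 of the summed Mgat transcript level in unstimulated Tlr9het and 16.2% ± 0.26 with CpG (SD, n = 3 each). Over the same groups the share of Mgat2 was 28.0% ± 1.4 and 67.8% ± 0.68. In Tlr997, Mgat2 went from 31.7% ± 1.4 to 62.7% ± 0.76, and in Tlr779 from 29.2% ± 1.7 to 46.2% ± 7.4 (SD, n = 3 each). The shares of Mgat2 with and without agonist did not overlap in any genotype. With 3 libraries against 3, an exact permutation test of such a share cannot go below a p of 0.1, and none is given.

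Among the Galnt enzymes, which attach the first sugar of mucin-type O-glycans, Galnt3 was the sole member called higher. Of 9 tested, 1 rose and 4 fell in Tlr9het, 1 rose and 5 fell in Tlr997, and 0 rose and 5 fell in Tlr779. The shares called, 55.6%, 66.7% and 55.6%, were near or above the 57.9%, 55.6% and 46.3% of all genes. Galnt3 was at 1.48, 1.68 and 1.17 log2 CPM in unstimulated Tlr9het and at 4.42, 4.07 and 4.37 with CpG, a log2 fold change of 2.85 ± 0.36 (SE, adjusted p = 8.4e-06). In Tlr997 it went from 1.97, 1.26 and 0.12 to 3.81, 3.53 and 3.20, a change of 2.40 ± 0.36. With CL097 it was at 1.16, 1.14 and 1.83 beside 0.94, 0.17 and 1.25 without, and these overlapping groups gave 0.59 ± 0.36 (adjusted p = 0.19).

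Galnt12 had the deepest fall of this family. Its 3 libraries were at 3.70, 3.80 and 3.92 log2 CPM in unstimulated Tlr9het and at 2.15, 2.06 and 1.76 with CpG, a log2 fold change of -1.82 ± 0.21. In Tlr997 they went from 3.81, 4.04 and 3.83 to 1.25, 1.49 and 2.11 (-2.28 ± 0.21), and in Tlr779 from 4.04, 4.29 and 3.89 to 2.12 in each library with CL097 (-1.95 ± 0.15). No library with agonist reached an unstimulated one. Galnt10 fell by 1.28, 1.78 and 1.77 on the log2 scale in the 3 responses, and Galnt1 by 0.82, 0.78 and 0.75. In Tlr9het the means of Galnt10 were 4.06 ± 0.25 log2 CPM without and 2.78 ± 0.25 with CpG, and those of Galnt1 7.90 ± 0.06 and 7.08 ± 0.01 (SD, n = 3 each). Galnt6 was called lower in each response, but its call with CL097 was lost without CL097 replicate 2 or 3 or unstimulated replicate 1 or 3. Galnt4 gave -0.15 in Tlr9het, where it was not called, and fell by 0.74 in Tlr997 and by 1.37 in Tlr779. Galnt7 and Galnt11 were among the steadiest members, with log2 fold changes between -0.18 and 0.10.

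Gcnt1, which adds the branch of core 2 O-glycans, lost most of its transcript. It was at 7.09, 7.09 and 7.03 log2 CPM in unstimulated Tlr9het and at 3.90, 3.87 and 3.71 with CpG, which is 9.49-fold lower (log2 fold change -3.25 ± 0.10, SE, adjusted p = 9.7e-12). In Tlr997 the libraries went from 6.88, 6.82 and 7.23 to 3.90, 4.00 and 3.93 (-3.03 ± 0.10), and in Tlr779 from 6.77, 6.59 and 6.70 to 4.93, 4.74 and 5.00 (-1.80 ± 0.09). Groups with and without agonist were far apart in each genotype. Gcnt2, which branches lactosamine chains, was near 0 log2 CPM and spread widely, from -4.50 to 0.08 within unstimulated Tlr997, so that its log2 fold changes of 0.28 to 1.41 carried standard errors of 0.69 to 0.93 and none was called.

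**Figure D2:**
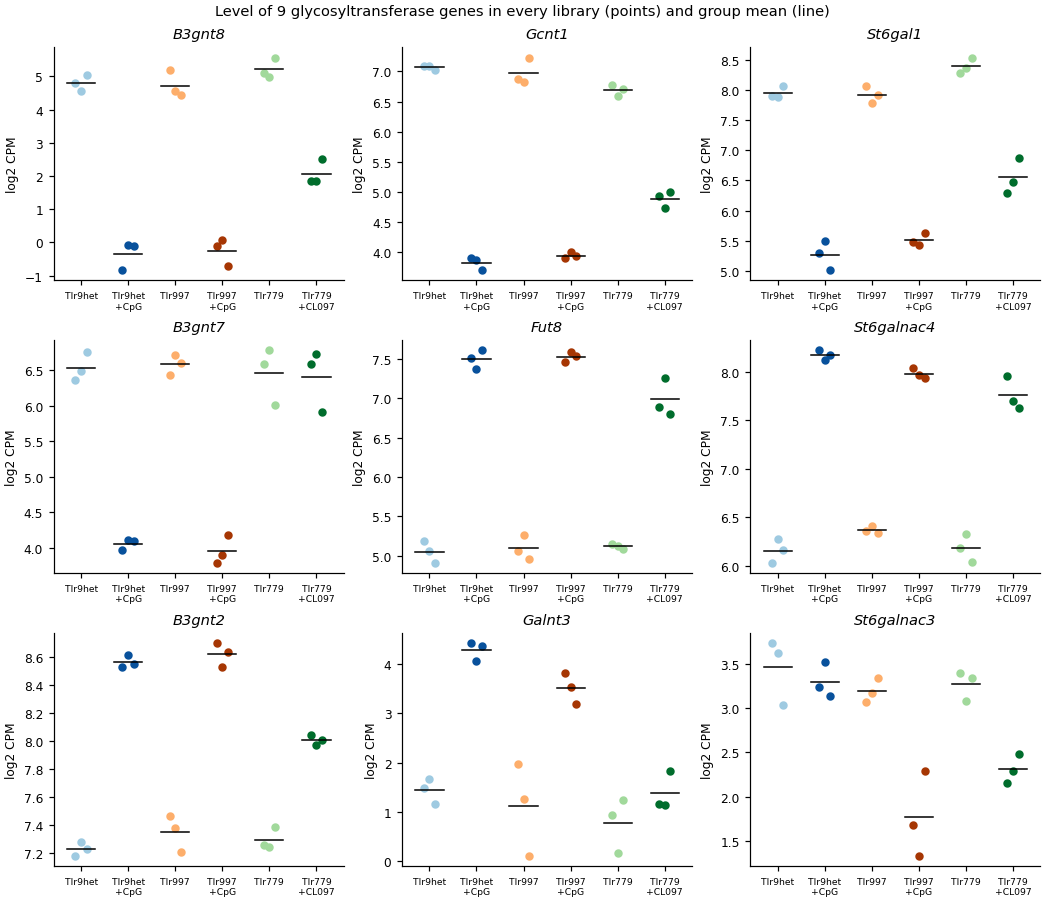
Level in log2 CPM (y axis, its range differs between panels) of 9 transferase genes in each of the 18 libraries (points), with group means (lines), for Tlr9het and Tlr997 without and with CpG and Tlr779 without and with CL097. B3gnt8, Gcnt1 and St6gal1 fall with every agonist, Fut8, St6galnac4 and B3gnt2 rise with each, B3gnt7 is lower and Galnt3 higher with CpG while their CL097 points overlap the unstimulated ones, and for St6galnac3 the CpG points of Tlr997 lie below those of Tlr9het.

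The chain-extending B3gnt enzymes, which add N-acetylglucosamine to galactose, changed in opposite directions. B3gnt8, which extends branched N-glycans and works together with B3gnt2, had the largest fall of all tested members in each response. It was at 4.79, 4.57 and 5.05 log2 CPM in unstimulated Tlr9het and at -0.82, -0.08 and -0.11 with CpG, or 35.2-fold lower (log2 fold change -5.14 ± 0.28, SE, adjusted p = 1.9e-09). In Tlr997 it went from 5.18, 4.55 and 4.43 to -0.11, 0.07 and -0.69 (-4.97 ± 0.28), and in Tlr779 from 5.09, 4.99 and 5.57 to 1.84, 1.85 and 2.51 (-3.15 ± 0.23). The libraries with CpG lay well above -2.24, the level that 3 counts would have.

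B3gnt2, the main enzyme of lactosamine chain extension, rose. It was at 7.18, 7.28 and 7.23 log2 CPM in unstimulated Tlr9het and at 8.53, 8.62 and 8.55 with CpG, a log2 fold change of 1.33 ± 0.07 (SE, adjusted p = 7.5e-10). The change was 1.27 ± 0.07 in Tlr997 and 0.71 ± 0.07 in Tlr779. The exons of B3gnt2 overlap those of Gm28048, a gene on the same strand. B3gnt5, which starts lacto-series glycolipids, fell by 2.16, 1.81 and 0.88 on the log2 scale in the 3 responses, the Tlr9het means being 8.75 ± 0.02 log2 CPM without and 6.58 ± 0.12 with CpG (SD, n = 3 each). Without stimulus it was the most abundant member per kb of exon, at 83.5 ± 1.3 CPM per kb in Tlr9het (SD, n = 3). B3gntl1 was not called.

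B3gnt7, an enzyme of keratan sulfate chains, was called with CpG and not with CL097. It was at 6.36, 6.49 and 6.76 log2 CPM in unstimulated Tlr9het and at 3.96, 4.11 and 4.09 with CpG, and at 6.43, 6.71 and 6.61 against 3.79, 3.90 and 4.18 in Tlr997. The log2 fold changes were -2.48 ± 0.12 and -2.63 ± 0.12. In Tlr779 the libraries were at 6.58, 6.78 and 6.0 without and 6.59, 6.72 and 5.91 with CL097, a change of -0.05 ± 0.25 with a 95% interval from -0.63 to 0.53. Whether the responses of the 2 arms differ was not tested.

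The opposite moves changed which B3gnt gene dominated. Of the summed B3gnt level per kb, from 9 genes with a known exon length, B3gnt5 held 44.7% ± 1.7 and B3gnt2 24.2% ± 1.2 in unstimulated Tlr9het (SD, n = 3). With CpG, B3gnt2 held 79.7% ± 0.50 and B3gnt5 13.1% ± 0.65. In Tlr997 the share of B3gnt2 went from 25.4% ± 2.4 to 77.2% ± 2.6, and in Tlr779 from 23.9% ± 1.9 to 47.4% ± 4.4. The summed level itself moved less, from 187 ± 8.6 to 143 ± 5.4 CPM per kb in Tlr9het and from 198 ± 4.3 to 164 ± 14 in Tlr779 (SD, n = 3 each).

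**Figure D3:**
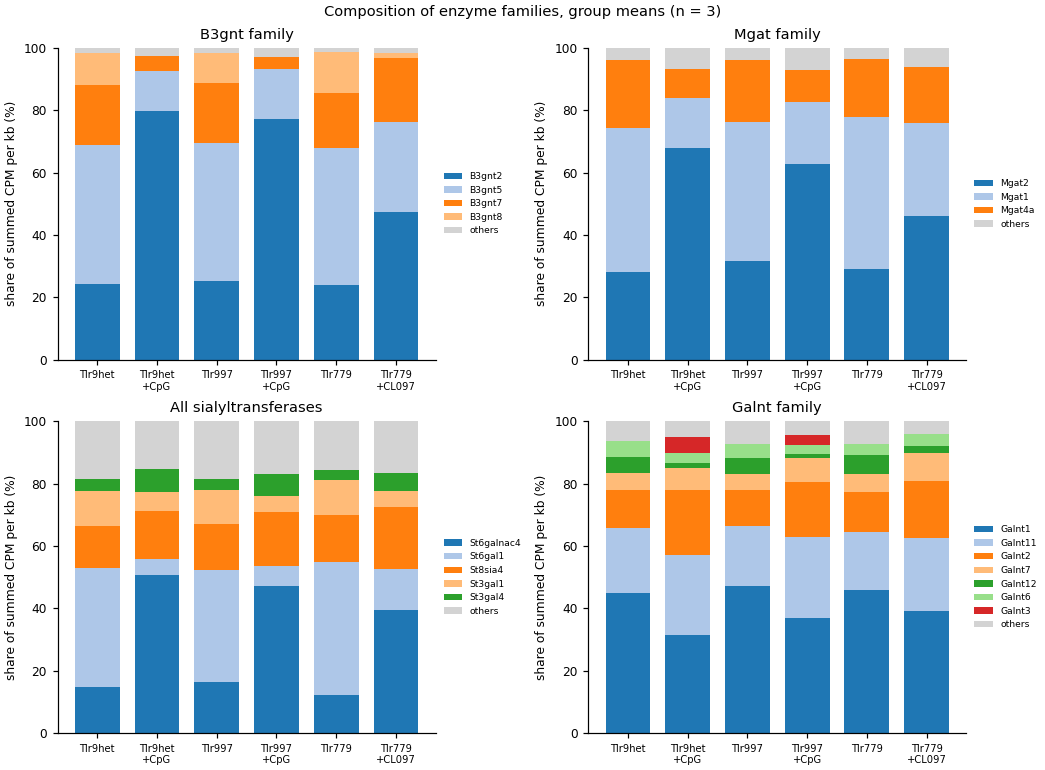
Share of each gene (y axis, percent of the summed CPM per kb of exon, stacked group means of 3 libraries) in the B3gnt, Mgat and Galnt families and among all sialyltransferases, in the 6 groups. B3gnt2, Mgat2 and St6galnac4 take a larger share with each agonist, while B3gnt5, Mgat1, St6gal1 and Galnt1 take a smaller share.

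The promoters of these 3 B3gnt genes are shown because their transcripts moved in different ways. Each is the RefSeq sequence of the 250 bases before an annotated transcription start in GRCm38.p6, the assembly behind the authors' mm10 build. It is printed 5′ to 3′ on the strand of the gene with the E-box CACGTG in capitals. For B3gnt8 and B3gnt2 this start is not the outermost one. The window of B3gnt8 reaches into the annotated gene (chr7:25627600-25629492), and that of B3gnt2 lies within it (chr11:22834739-22860336). B3gnt8 lies at chr7:25627374-25627623 (plus strand), B3gnt7 at chr1:86302971-86303220 (plus strand) and B3gnt2 at chr11:22859736-22859985 (minus strand).
B3gnt8: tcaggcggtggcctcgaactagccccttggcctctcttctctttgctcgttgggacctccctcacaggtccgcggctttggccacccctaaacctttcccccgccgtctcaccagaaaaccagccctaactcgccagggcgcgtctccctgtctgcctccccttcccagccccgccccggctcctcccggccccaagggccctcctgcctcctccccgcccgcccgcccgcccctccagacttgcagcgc
B3gnt7: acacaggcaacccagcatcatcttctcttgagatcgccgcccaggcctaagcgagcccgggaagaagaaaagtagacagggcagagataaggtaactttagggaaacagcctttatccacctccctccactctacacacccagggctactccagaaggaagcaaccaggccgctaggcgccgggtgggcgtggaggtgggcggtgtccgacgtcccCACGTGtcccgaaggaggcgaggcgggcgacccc
B3gnt2: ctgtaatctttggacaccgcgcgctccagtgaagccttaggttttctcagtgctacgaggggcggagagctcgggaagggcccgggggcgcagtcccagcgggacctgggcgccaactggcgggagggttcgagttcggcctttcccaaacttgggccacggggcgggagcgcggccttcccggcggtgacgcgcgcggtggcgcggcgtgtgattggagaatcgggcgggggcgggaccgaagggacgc

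The letters were searched for 2 motifs on both strands, the E-box CACGTG, which reads the same on either strand, and the NF-kB consensus by its name alone, and no match of one overlapped the other. Of the 83 members, 60 had 86 windows in the RefSeq table. The E-box was in 5 of these windows (5.81%), those of B3galt2, B3galt5, B3gnt7, Galnt9 and St6galnac3, beside 6.02% of all 32851 windows. The NF-kB consensus was in 1 window (1.16%), that of St3gal6, beside 3.9% of all windows. Neither was in the 11 windows of the 8 genes called higher in all 3 responses. Nor was either in the 18 windows of those called lower in all 3, which covered 10 of the 15 genes. The rest of these were not searched. In B3gnt7 the E-box spans the bases from -34 to -29 relative to the start. A match is a description of the letters and no binding was measured.

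The genes with B3galt and B4galt symbols were split. B3galt6, which with B4galt7 builds the linker of proteoglycan chains, was at 2.46, 2.47 and 2.57 log2 CPM in unstimulated Tlr9het and at 4.81, 5.04 and 4.90 with CpG, a log2 fold change of 2.42 ± 0.16 (SE, adjusted p = 1e-08). It went from 2.67, 2.65 and 2.04 to 4.71, 4.88 and 4.74 in Tlr997 (2.33 ± 0.16) and from 2.46, 2.80 and 2.68 to 4.16, 4.04 and 4.02 in Tlr779 (1.43 ± 0.14). Its libraries with agonist were all above the unstimulated ones. B4galt7 had log2 fold changes of -0.51, -0.27 and -0.25, of which the first alone was called, and that call was lost without unstimulated replicate 3 or CpG replicate 2.

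B4galt5, a lactosylceramide synthase, rose in each response. It was at 7.53, 7.58 and 7.36 log2 CPM in unstimulated Tlr9het and at 8.54, 8.40 and 8.54 with CpG (1.01 ± 0.09, SE), and at 7.45, 7.82 and 7.60 against 8.26, 8.36 and 8.25 in Tlr997 (0.66 ± 0.09). In Tlr779 it went from 7.45, 7.34 and 7.1 to 8.83, 8.39 and 8.76 with CL097 (1.36 ± 0.13). B4galt1, the main galactosyltransferase of lactosamine units, was not called in any response, with log2 fold changes of -0.20, 0.15 and 0.32. B4galt4 was called higher in each response, but its unstimulated libraries were at or below -0.82 log2 CPM, and 3 of the 9 lay under the level of 3 counts. It passed the filter only through its libraries with agonist. The calls in Tlr9het and Tlr779 were lost in 4 and in 3 of the 6 fits that left out a library. B3galtl, an older symbol of B3glct, fell by 0.98, 1.17 and 1.45 on the log2 scale. It acts on O-fucose and stands in this group by its symbol alone, not as a galactosyltransferase.

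Of 9 fucosyltransferases 4 were tested, and all 4 were called in each response, 2 higher and 2 lower. Of all genes, 57.9%, 55.6% and 46.3% were called. Fut8, the sole enzyme of core fucose on N-glycans, was at 5.18, 5.06 and 4.91 log2 CPM in unstimulated Tlr9het and at 7.51, 7.38 and 7.61 with CpG, or 5.45-fold higher (log2 fold change 2.45 ± 0.09, SE, adjusted p = 5.1e-11). In Tlr997 it went from 5.07, 5.26 and 4.96 to 7.46, 7.59 and 7.54 (2.43 ± 0.09), and in Tlr779 from 5.16, 5.13 and 5.09 to 6.89, 7.26 and 6.80 (1.86 ± 0.12). No library with agonist overlapped an unstimulated one. An exon of Fut8 overlaps a gene on the other strand.

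Fut4, which makes Lewis x structures, started low. It was at -0.72, -0.47 and -0.59 log2 CPM in unstimulated Tlr9het and at 2.50, 2.68 and 2.81 with CpG (log2 fold change 3.26 ± 0.25, SE), and at 0.28, 0.04 and 0.31 against 2.54, 2.33 and 1.96 in Tlr997 (2.06 ± 0.25). In Tlr779 it went from -0.06, -0.15 and 0.12 to 1.63, 1.35 and 1.81 (1.63 ± 0.27). Fut11 fell by 1.34, 1.34 and 1.74 on the log2 scale, and Fut10 by 1.47, 1.67 and 0.83, the last of which was lost without any single library of 4 of the 6. In Tlr9het the mean of Fut11 went from 4.27 ± 0.13 to 2.94 ± 0.19 log2 CPM (SD, n = 3 each). Summed per kb, the fucosyltransferases went from 15.1 ± 0.31 to 55.6 ± 4.3 CPM per kb in Tlr9het, from 15.8 ± 1.2 to 56.0 ± 2.3 in Tlr997 and from 16.2 ± 0.38 to 39.5 ± 6.4 in Tlr779 (SD, n = 3 each), of which Fut8 held 62.7%, 61.4% and 61.1% without and 92.5%, 93.5% and 92.0% with agonist.

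Among the sialyltransferases, St6gal1 fell and St6galnac4 rose in each response. St6gal1, which makes the sialylated N-glycan ends that CD22 binds, was at 7.89, 7.88 and 8.06 log2 CPM in unstimulated Tlr9het and at 5.30, 5.49 and 5.02 with CpG, or 6.37-fold lower (log2 fold change -2.67 ± 0.11, SE, adjusted p = 1.1e-10). In Tlr997 it went from 8.06, 7.78 and 7.91 to 5.49, 5.43 and 5.63 (-2.40 ± 0.11), and in Tlr779 from 8.29, 8.36 and 8.53 to 6.30, 6.48 and 6.88 (-1.84 ± 0.14). Within each genotype, no library with agonist came within 1 log2 unit of an unstimulated one. Its exons overlap those of a gene on the other strand.

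St6galnac4, which adds sialic acid to the inner sugar of sialylated O-glycans, rose 4.05-fold with CpG in Tlr9het, from 6.03, 6.27 and 6.16 log2 CPM to 8.22, 8.12 and 8.18 (log2 fold change 2.02 ± 0.06, SE, adjusted p = 1.1e-11). In Tlr997 it went from 6.36, 6.41 and 6.34 to 8.04, 7.97 and 7.94 (1.61 ± 0.06), and in Tlr779 from 6.18, 6.33 and 6.04 to 7.95, 7.70 and 7.63 (1.58 ± 0.11). The groups with and without agonist lay far apart in each genotype. St6galnac4 held 14.8% ± 1.3 of the summed sialyltransferase level per kb in unstimulated Tlr9het and 50.6% ± 1.1 with CpG, while St6gal1 went from 38.1% ± 2.0 to 5.13% ± 0.85 (SD, n = 3 each). In Tlr779 the share of St6galnac4 went from 12.3% ± 1.2 to 39.5% ± 3.7 and that of St6gal1 from 42.6% ± 3.3 to 13.0% ± 3.1. The summed level over all 20 sialyltransferases was 134 ± 2.2 CPM per kb without and 157 ± 2.5 with CpG in Tlr9het, and 164 ± 3.0 without and 152 ± 4.1 with CL097 in Tlr779.

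Of the other sialyltransferases, St3gal1, which caps core 1 O-glycans, fell by 0.62, 0.97 and 1.20 on the log2 scale in the 3 responses, and St3gal4 rose by 1.18, 1.05 and 0.67. In Tlr9het St3gal1 went from 6.45 ± 0.15 to 5.83 ± 0.10 log2 CPM and St3gal4 from 3.41 ± 0.20 to 4.58 ± 0.15 (SD, n = 3 each). St8sia6 rose by 1.08 and 1.00 with CpG and had a change of 0.41 with CL097 that was under the fold threshold. St8sia4, a polysialyltransferase, was at 7.91, 8.12 and 7.99 log2 CPM in unstimulated Tlr9het and at 8.39, 8.51 and 8.42 with CpG, at 8.19, 8.19 and 8.23 against 8.43, 8.54 and 8.56 in Tlr997, and at 8.52, 8.52 and 8.35 against 8.82, 8.81 and 8.65 in Tlr779. These groups did not overlap, and the log2 fold changes of 0.43, 0.31 and 0.30 passed the test but not the fold threshold. St6galnac2 was called higher in Tlr997 alone, from unstimulated libraries of which 2 lay under the level of 3 counts, and the call was lost without CpG replicate 1 or 3. It passed the filter only through libraries with CpG. St3gal5, which makes the ganglioside GM3, was at 2.97, 2.17 and 1.67 log2 CPM in unstimulated Tlr9het and at 2.42, 1.63 and 0.85 with CpG, in the order of the replicate numbers. It was not called, but was called lower in Tlr9het with the replicate number as a block, and in both CpG responses with the block within genotype.

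Per kb of exon, the order of the members changed with the agonist. In unstimulated Tlr9het the highest after B3gnt5 were Galnt1 (55.5 ± 2.1 CPM per kb), B4galt1 (51.9 ± 2.1), St6gal1 (51.0 ± 3.5), Mgat1 (49.4 ± 0.23) and B3gnt2 (45.2 ± 1.5), and neighbours from Galnt1 to Mgat1 in this order were within their spread. With CpG the highest were B3gnt2 (114 ± 3.6), B4galt5 (85.8 ± 5.0), St6galnac4 (79.6 ± 2.8), Fut8 (51.5 ± 4.1) and Mgat2 (50.7 ± 1.5), the last pair being within their spread (SD, n = 3). B3gnt8 went from place 14 to place 43 of 82. In Tlr779 with CL097, B4galt5 (96.9 ± 15), B3gnt2 (77.5 ± 1.8), B4galt1 (74.97 ± 9.1) and St6galnac4 (60.1 ± 7.3) led.

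The 35 members that were not tested were low everywhere. Of all 83, 9 stayed within 0.05 of the lowest value of -5.05 log2 CPM in all 18 libraries (B3galt1, Fut4-ps1, Galnt13, Galnt15, Galntl6, Mgat4c, Mgat5b, St6gal2 and St8sia3), and 20 stayed under the level of 3 counts. St6gal2, the only other enzyme of the St6gal1 reaction, was thus not detectable at this depth. Fut1 was the sole untested member with any library over 0 log2 CPM.

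Between the genotypes, unstimulated cells gave no call. Of 48 members tested, 0 were higher and 0 lower in Tlr997 than in Tlr9het by limma, while 0.0174% of all genes were called. An unadjusted p under 0.05 was found for 6 of the 48 members and for 1237 of all 11494 genes. The 3 with the smallest p, none of them called, were Mgat2 (log2 fold change 0.28 ± 0.06, adjusted p = 0.30), St6galnac4 (0.21 ± 0.06, adjusted p = 0.33) and St8sia4 (0.20 ± 0.06, adjusted p = 0.34). B3gnt8 differed by -0.08 ± 0.28 and St6gal1 by -0.03 ± 0.11, with 95% intervals from -0.70 to 0.54 and from -0.26 to 0.21.

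With CpG, 1 of 48 was higher and 1 lower in Tlr997, or 4.17% of the tested members, while 2.72% of all genes were called (1.25% higher and 1.47% lower). The lower gene was St6galnac3 (chr3:153198274-153725133, GRCm38.p6, minus strand), which sialylates O-glycans and glycolipids. It was at 3.24, 3.52 and 3.13 log2 CPM in Tlr9het with CpG and at 1.68, 1.33 and 2.29 in Tlr997 with CpG, or 2.89-fold lower (log2 fold change -1.53 ± 0.24, SE, adjusted p = 0.0028). The groups did not overlap, and the call held in each of the fits that left out a library. In unstimulated cells it was at 3.73, 3.63 and 3.04 in Tlr9het and at 3.06, 3.17 and 3.35 in Tlr997, where the groups overlapped (-0.27 ± 0.24, adjusted p = 0.71).

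CpG itself thus changed St6galnac3 by -0.17 ± 0.24 in Tlr9het and by -1.43 ± 0.24 in Tlr997 (adjusted p = 0.55 and 0.00015). The difference of these responses was -1.26 ± 0.35 with a 95% interval from -2.01 to -0.51, and its adjusted p of 0.088 missed the threshold. It was 0.023 with replicate number as a block within genotype, and 0.035 without Tlr997 with CpG replicate 3, where the difference was -1.52. In Tlr779 it was at 3.39, 3.08 and 3.35 without and 2.15, 2.29 and 2.48 with CL097 (-0.96 ± 0.17, adjusted p = 0.0016). Its promoter is printed in the same way, at chr3:153725134-153725383 (minus strand), because it is the sole member lower between genotypes and holds an E-box, which spans the bases from -97 to -92.
St6galnac3: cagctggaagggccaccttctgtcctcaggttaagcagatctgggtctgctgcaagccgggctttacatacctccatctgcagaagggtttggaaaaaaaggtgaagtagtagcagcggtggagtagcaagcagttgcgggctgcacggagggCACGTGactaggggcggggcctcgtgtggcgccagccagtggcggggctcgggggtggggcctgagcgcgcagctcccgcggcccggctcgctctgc

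**Figure D4:**
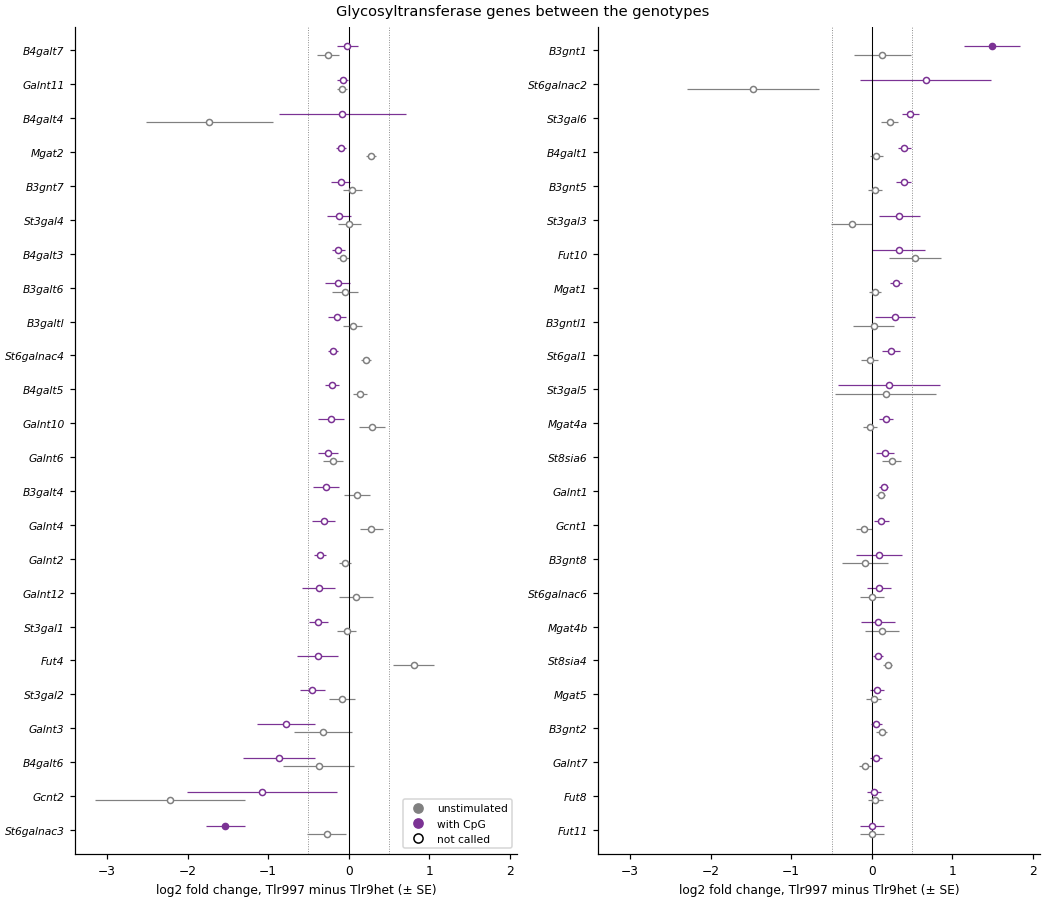
Log2 fold change between the genotypes (x axis, Tlr997 minus Tlr9het, with its standard error) of the 48 tested transferase genes, unstimulated (grey) and with CpG (purple), 3 libraries per group, sorted by the value with CpG. Filled points were called and dotted lines mark a change of 0.5. St6galnac3 at -1.53 and B3gnt1 at 1.49 are the filled points, and the widest bars belong to the low genes Gcnt2, B4galt4 and St6galnac2.

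The higher gene was B3gnt1, at -2.01, -1.54 and -1.07 log2 CPM in Tlr9het with CpG and at -0.05, -0.07 and -0.04 in Tlr997 with CpG (log2 fold change 1.49 ± 0.35, SE, adjusted p = 0.026). This symbol is an older name of both B4gat1 and B3gnt2, and since B3gnt2 has a row of its own the gene counted under it is uncertain. The call was lost in 5 of the 6 fits that left out a library with CpG (adjusted p from 0.067 to 0.10). A further 5 members passed the test but not the fold threshold, namely St3gal6 (0.48 ± 0.10), B4galt1 (0.40 ± 0.08), B3gnt5 (0.39 ± 0.09), Mgat1 (0.30 ± 0.07) and Galnt2 (-0.36 ± 0.08). At any fold, 7 of 48 members passed the test, beside 680 of all 11494 genes.

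St3gal6, which caps lactosamine ends, was at 3.68, 3.95 and 3.72 log2 CPM in Tlr9het and at 4.37, 4.26 and 4.15 in Tlr997 with CpG, without overlap, and at 4.51, 4.44 and 4.37 against 4.73, 4.68 and 4.57 without. B4galt1 was at 7.55, 7.54 and 7.65 in Tlr9het and at 8.12, 7.83 and 8.0 in Tlr997 with CpG, also without overlap. In unstimulated cells B4galt1 was at 7.76, 7.73 and 7.84 against 7.97, 7.84 and 7.68, and in Tlr779 at 8.02, 8.17 and 7.75 without and 8.09, 8.40 and 8.42 with CL097. B3gnt8 and St6gal1, the genes with the deepest falls in their groups, differed between the genotypes with CpG by 0.09 ± 0.28 and 0.24 ± 0.11 (adjusted p = 0.92 and 0.25). The summed B-cell markers, at 1653 to 1721 CPM in Tlr9het and 2598 to 3160 in Tlr997 with CpG, moved with this comparison, and their part in it was not tested.

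In the difference of the CpG responses, 0 of 48 members were called by limma, while 1.54% of all genes were. An unadjusted p under 0.05 was found for 12 of the 48 members and for 1839 of all 11494 genes. Mgat2 and St6galnac4 passed the adjusted test under the fold threshold, and 239 of all genes passed it at any fold.

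Genes that act with the transferases moved as follows. Of 17 tested genes for the making and transport of sugar nucleotides, 4 rose and 2 fell in Tlr9het, 4 rose and 2 fell in Tlr997, and 3 rose and 2 fell in Tlr779, with medians of 0.19, 0.17 and 0.02. That is 35.3%, 35.3% and 29.4% called, beside 57.9%, 55.6% and 46.3% of all genes. Uap1 and Pgm3, enzymes of UDP-N-acetylglucosamine synthesis, rose in each, Uap1 by 1.17, 1.00 and 0.95 and Pgm3 by 0.91, 0.77 and 0.69 on the log2 scale. Cmah, which turns N-acetylneuraminic into N-glycolylneuraminic acid, the form that mouse CD22 prefers, fell by 2.92, 3.35 and 1.70. It was at 7.76 ± 0.07 log2 CPM in unstimulated Tlr9het and at 4.84 ± 0.04 with CpG (SD, n = 3 each). Gne and Cmas, which make and activate sialic acid, were not called in any response.

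Of 18 other glycan enzymes, 4 rose and 7 fell in Tlr9het, 2 rose and 8 fell in Tlr997, and 1 rose and 9 fell in Tlr779, with medians of -0.19, -0.34 and -0.42, and the shares called of 61.1%, 55.6% and 55.6% were near those of all genes. The mannosidases Man1a, Man2a1 and Man2a2, which trim N-glycans, fell in each, Man2a2 by 2.72, 2.72 and 1.41 on the log2 scale. Man1b1 and Man1a2 were called in none, with changes of -0.18, -0.22 and -0.18 and of 0.28, 0.14 and 0.009. Man1c1, a low gene, was called lower in Tlr997 and Tlr779 alone. C1galt1, which makes core 1 O-glycans, fell by 1.39, 1.13 and 0.79, and Siae, a sialic acid esterase, by 3.16, 2.40 and 1.98. Neu3, a sialidase of gangliosides, rose by 2.03, 1.90 and 1.62. Between the genotypes with CpG, Man2a1 was lower in Tlr997 (-0.69 ± 0.06, adjusted p = 4e-05) and B4galnt1, a ganglioside synthase, higher (0.66 ± 0.08, adjusted p = 0.00041). For both the difference of the CpG responses was called as well, at -0.72 ± 0.09 and 0.74 ± 0.11.

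Of 6 glycan-binding proteins, 0 rose and 5 fell in each response, with medians of -1.50, -1.47 and -1.13. Of all genes, 28.2%, 26% and 23.6% were called lower, and the medians were 0.04, 0.07 and -0.02. Cd22 fell by 3.29, 2.71 and 1.85 on the log2 scale and Siglecg by 2.57, 2.12 and 1.99. With CpG, Cd22 (0.58 ± 0.12, adjusted p = 0.011) and Lgals9 (0.65 ± 0.12, adjusted p = 0.0077) were higher in Tlr997 than in Tlr9het. Cd22 is also 1 of the 6 B-cell markers whose sum is given above.

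**Figure D5:**
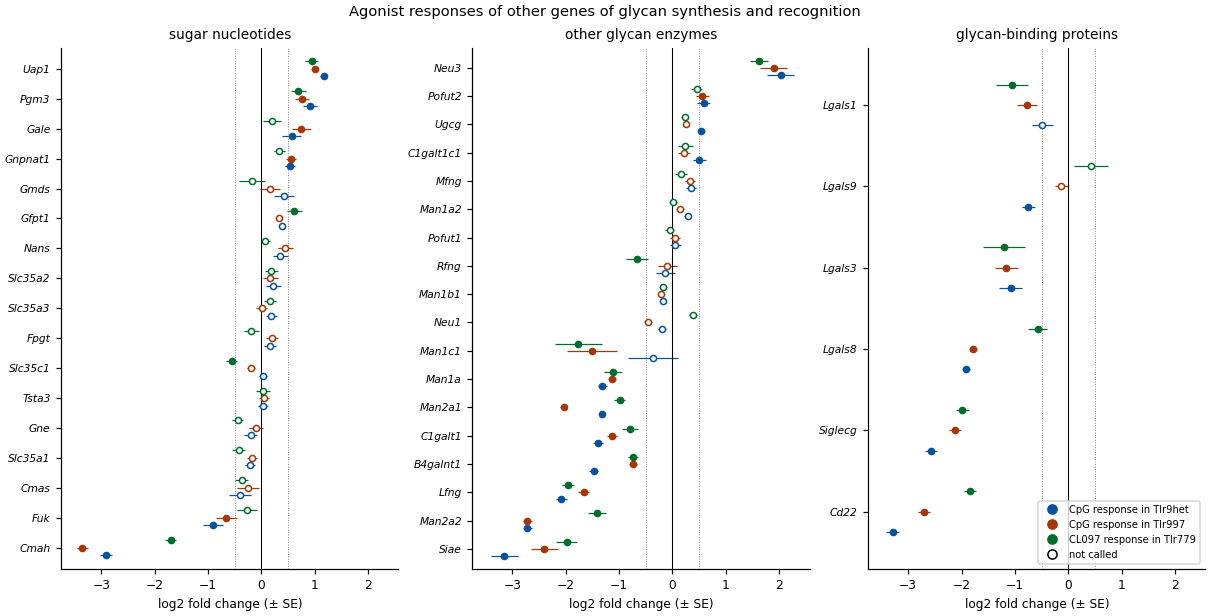
Log2 fold change (x axis, stimulated minus unstimulated, with its standard error) of genes for sugar nucleotides, other glycan enzymes and glycan-binding proteins with CpG in Tlr9het (blue), CpG in Tlr997 (orange) and CL097 in Tlr779 (green), 3 libraries per group. Filled points were called. Cmah lies lowest of its panel in each response, Neu3 highest of its panel, and all filled points among the glycan-binding proteins are below 0.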

How the data were processed

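RNA of bead-purified splenic B cells was sequenced by the authors from stranded, paired-end mRNA libraries. Per the labels, the submitters' processing notes name FastQC (0.11.7), Trim Galore (0.6.5), STAR (2.6.1a), featureCounts from Subread (2.0.1) and limma, with the build mm10. The deposited values are log2 CPM per gene after quantile normalization and the voom transformation by the authors, which gives no library's depth. Voom's offset of 0.5 counts is part of each value and understates the change of low genes. The most frequent low value, -5.05, puts 3 counts at -2.24. Among genes below -4 in the Tlr7-/- arm, 6306 of 6614 held 1 value in all libraries with the same number, 822 of them with unequal values across the numbers (1817 of 7302 in the Tlr779 arm). An offset per number and gene would leave such values, but no source used here describes one, and a test without a block takes no account of it.

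The members and gene lists were chosen with earlier results of these data known. A gene of the list of glycan-binding proteins is not reported here. Limma (3.58.1, R 4.3.3) with a mean-variance trend was fitted to the 12 libraries of the Tlr7-/- arm in 1 model and to the 6 Tlr779 libraries separately, over all genes above 0 log2 CPM in at least 3 fitted libraries, without a block or pseudocount. P-values were adjusted by Benjamini-Hochberg over all genes tested. The code was tested on simulated data. Values in every library are given for B3gnt8, St6galnac3, St6gal1, the 4 most positive and 4 most negative called members of each response with a mean over 2 log2 CPM in a group, all members called between genotypes, and, where fewer than 3 were called, the 3 with the smallest p. Other named members follow the role groups, up to 4 in each by that rule. Members beyond it (untested, uncalled or unstable ones, and some in the larger groups) were chosen after their values were seen. CPM per kb used the exon union of GENCODE M21, which is not the authors' annotation. Of 83 members, 81 matched RefSeq by symbol, 1 by an older symbol and 1 (B3gnt1) matched no single gene. Exons of 26 members overlap another gene. The protocol describes 3 mice per genotype but does not tie a number to a mouse, so p-values measure the spread between these libraries. Samples with the same number deviated together in Tlr9het (correlations 0.51, 0.29 and 0.51) and Tlr779 (0.25, 0.49 and 0.33), and not clearly in Tlr997 (0.37, 0.083 and 0.025). The main fits took no account of such pairs, and only the alternative fits with a replicate block did. Alternatives covered the low-value filter, log2(CPM + 1), the trend, the fold threshold, the libraries fitted, the replicate block and each library left out.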

Additional observations from a re-analysis of the deposited data

Results flagged for a closer look

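The CpG responses of Mgat2 and St6galnac4 differed between the genotypes in the test of the difference itself (limma, Benjamini-Hochberg over 11494 genes). Mgat2 rose by 0.77 ± 0.06 on the log2 scale in Tlr9het and gave 0.39 ± 0.06 in Tlr997, a difference of -0.38 ± 0.09 (SE, adjusted p = 0.043). St6galnac4 rose by 2.02 ± 0.06 and by 1.61 ± 0.06, a difference of -0.40 ± 0.09 (SE, adjusted p = 0.036). Both differences were under the fold threshold of 0.5. In unstimulated cells, Tlr997 was higher by 0.28 for Mgat2 and by 0.21 for St6galnac4, and with CpG the genes were at -0.10 and -0.19 on the same scale.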

How the results depend on the processing

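No alternative called a member in the opposite direction, and of 182 recomputed counts 170 stayed within 1.5 times. The 170 include all counts between unstimulated genotypes and most of those in the difference of CpG responses, which were 0 before and after. Raising the fold threshold to 1 left 11 members lower with CL097, against 17. Between the genotypes with CpG, 0 members were higher with no filter, with a filter over 2 log2 CPM, with log2(CPM + 1) or with only the groups compared, and leaving out a library gave 0 to 1. With only the groups compared 2 were lower, Galnt3 being added. In the difference of CpG responses, 1 member was lower without the variance trend (Fut4), 1 with the replicate block within genotype (St6galnac3) and 0 to 1 when a library was left out, the 1 being St6galnac3 without Tlr997 with CpG replicate 3. The cause was not tested. St3gal6 was called between the genotypes without Tlr997 with CpG replicate 3 (0.53) or Tlr9het with CpG replicate 2 (0.56).

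Uncalled values near 0 changed sign when a library was left out. Between unstimulated genotypes B3gnt8 came to 0.006, 0.042 and 0.064 in a range from -0.31 to 0.064, and St6gal1 to 0.0418 and 0.0292 in a range from -0.0992 to 0.0418. With CpG, B3gnt8 came to -0.0657 and -0.152 in a range to 0.318, and its difference of responses to -0.072 in a range to 0.402. The replicate block, also within genotype, changed no other call than St6galnac3 in the difference and St3gal5, which it called in the CpG responses. Genes under 0 log2 CPM rest on few counts.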
